A study of Homo sapiens with 12 samples.

Results

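The data cover 10 genes that modify, chaperone or crosslink collagen, of the 57773 genes listed without the spike-in RNAs. They were taken by name: the prolyl 4-hydroxylase subunits P4HA1, P4HA2 and P4HB, the prolyl 3-hydroxylase P3H2 (listed under its older symbol LEPREL1), the lysyl hydroxylases PLOD1, PLOD2 and PLOD3, the chaperone SERPINH1 and the extracellular oxidases LOX and LOXL2. Beside their function, the genes were selected on their measured values: the group was proposed with its FPM levels by siRNA group in the same 12 libraries in view. The levels and the table-wide adjusted p-values below are therefore a description of these libraries and are not independent evidence about the genes. All 10 passed the filter on low values, with 31 reads (P4HA1) to 5215 reads (SERPINH1) per library.

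The cells were ES-2, an established human line derived from an ovarian cancer, grown in DMEM with fetal bovine serum. They received control siRNA (siC), or a pool of siRNAs to IGF2BP1 (called siI1), to IGF2BP2 (siI2) or to IGF2BP3 (siI3), with 3 libraries in each of the 4 groups and no other genotype or agent named. The treatment protocol mentions only parental cells, and the sources used here do not give the siRNA dose or the time of harvest. All groups are 1 cell line, and nothing states that replicate libraries came from separate cultures. A p-value then measures only how far these samples spread, which may be technical. The IGF2BP proteins are RNA-binding proteins that influence the stability and translation of mRNAs.

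Collagen chains are modified in the endoplasmic reticulum before they leave the cell. Prolyl 4-hydroxylation stabilizes the triple helix, lysyl hydroxylation prepares the sites of sugar attachment and crosslinking, and SERPINH1 (HSP47) binds the folded helix. After secretion and trimming of the propeptides, the copper-dependent lysyl oxidases oxidize lysines and hydroxylysines, and the aldehydes formed join neighbouring molecules. Several of these genes, P4HA1, P4HA2, PLOD2 and LOX among them, are known targets of hypoxia-inducible factors.

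Levels are given as deposited, in FPM (fragment counts scaled to library size). Totals were 3299360 to 11304060 reads per library, and 3 reads corresponded to 0.324 to 0.727 FPM. Each siRNA lowered its own target: IGF2BP1 was at 25.2% of siC in siI1, IGF2BP2 at 16.8% in siI2 and IGF2BP3 at 19.2% in siI3. The other paralogs also shifted without passing the test. IGF2BP3 stood at 64.7% of siC under siI1 and 63.5% under siI2, below every siC library (limma adjusted p = 0.19 and 0.2). IGF2BP1 stood at 127% under siI2, and IGF2BP2 at 111% under siI1 and 129% under siI3, above every siC library (limma adjusted p = 0.262, 0.684 and 0.286). The dependence of a gene's level on the GC content of its transcript differed between libraries. Per 10 points of GC, relative to the mean of all libraries, the log2 level changed by -0.46 and -0.43 in siC replicates 1 and 3, 0.03 in siC replicate 2 and -0.09 to 0.21 in the 9 knockdown libraries. A fit corrected for GC content and length is therefore given beside the results. Of the markers of the line's stated origin, the keratins KRT7 (347 to 938 FPM), KRT8 (36.5 to 162) and KRT18 (103 to 371) were present, while PAX8, WT1 and EPCAM stayed at 15 reads or fewer. The leukocyte markers PTPRC, CD3E and CD68 stayed at 5 reads or fewer and the fibroblast markers DCN, LUM and COL3A1 at 12 or fewer, but the fibroblast marker PDGFRA was at 2.03 to 8.96 FPM (up to 75 reads).

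In the group, 3 genes were higher after knockdown of IGF2BP1 and of IGF2BP2: P3H2, SERPINH1 and LOXL2. After knockdown of IGF2BP3, LOXL2 was higher by a smaller amount, P4HA1 was lower, and P3H2 and SERPINH1 did not pass the test. In siI1 against siC, 3 of 10 rose and 0 fell, beside 8.18% of all 13782 genes tested that were called (limma, adjusted p below 0.05), 3.77% higher and 4.42% lower. In siI2, 3 rose and 0 fell, beside 1.51% of all genes called, 0.573% higher and 0.936% lower. In siI3, 1 rose and 1 fell, beside 10.6% of all genes called, 2.3% higher and 8.29% lower. These counts describe the genes by which the group was noticed, and nothing further is read from them. The median log2 fold change of the 10 was 0.27 in siI1, 0.27 in siI2 and 0.04 in siI3. Over all genes tested it was -0.05, -0.09 and -0.05. The 3 comparisons share the siC libraries, so their changes are not independent of each other.

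Upstream sequence was read from RefSeq (GRCh38.p14) for 9 of the 10 genes, as LOXL2 had no entry. The 250 bases before each annotated start were taken, to show what elements stand before the genes whose levels moved. SERPINH1 is known to be induced by heat shock factor. The window before its first annotated start holds the heat shock element (the triplets GAA, TTC and GAA, with any 2 bases between them), and that before its second start does not. The element is present on either strand in 0.441% of the 35116 promoters of this length and 0.332% of those of tested genes. P4HA1, lower in siI3, holds the hypoxia response core (ACGTG or GCGTG, either strand), which 43.2% of all promoters and 55.3% of those of tested genes also hold. P3H2 is shown at its second annotated start, where the core occurs in an overlapping pair and once more nearer to the start. The capitals mark these motifs as read on the gene's strand, for SERPINH1 at chr11:75562169-75562197 (plus strand, 84 to 56 bases before the start), P4HA1 at chr10:73096940-73096960 (minus strand, 94 to 74 before) and P3H2 at chr3:190120930-190121147 (minus strand, 250 to 33 before).
SERPINH1: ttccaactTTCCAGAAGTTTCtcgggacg
P4HA1: atcgagctCACGTagcgaggg
P3H2: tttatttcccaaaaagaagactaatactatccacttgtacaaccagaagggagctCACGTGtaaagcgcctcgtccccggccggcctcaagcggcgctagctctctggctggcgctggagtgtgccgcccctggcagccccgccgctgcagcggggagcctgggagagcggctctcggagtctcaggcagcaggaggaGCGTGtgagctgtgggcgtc

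The hypoxia core was also found before PLOD1, PLOD2, P4HB and LOX, and for SERPINH1 only before its second annotated start. It was not among the letters of the windows of PLOD3 and P4HA2. Among the genes with the core, P3H2, SERPINH1 and P4HA1 had a call against siC, and PLOD1, PLOD2, P4HB and LOX had none. A part of the core in the levels was not tested. A match is a description of the sequence and not a binding site.

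The study's title concerns miRNAs, so sites for let-7, whose targets IGF2BP1 is known to shield, and for miR-29, a family known to target collagen genes, were looked for in the longest annotated 3' UTR of each gene (GENCODE 29). The capitals in the mature sequences (RefSeq) mark the seed, bases 2 to 8.
hsa-let-7a-5p: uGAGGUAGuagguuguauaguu
hsa-miR-29a-3p: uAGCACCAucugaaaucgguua

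The let-7 site CTACCTC was in 0 of the 10 UTRs, beside 11.2% of 11347 genes. The miR-29 site TGGTGCT was in 2 of 10, LOX with 3 sites and LOXL2 with 1, beside 17.3% of those genes, and P3H2 and SERPINH1 held neither site. LOX, with the most sites, did not pass the test in any comparison with siC. Its 3 sites start at bases 484, 1349 and 3227 of a UTR of 3548 bases, shown here with the site in capitals because they are the matches with the most sites among the 10.
LOX first site: gacacatcTGGTGCTgagaaaga
LOX second site: taagttagTGGTGCTtaagcata
LOX last site: agctaaaaTGGTGCTgagttatt

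**Figure D1:**
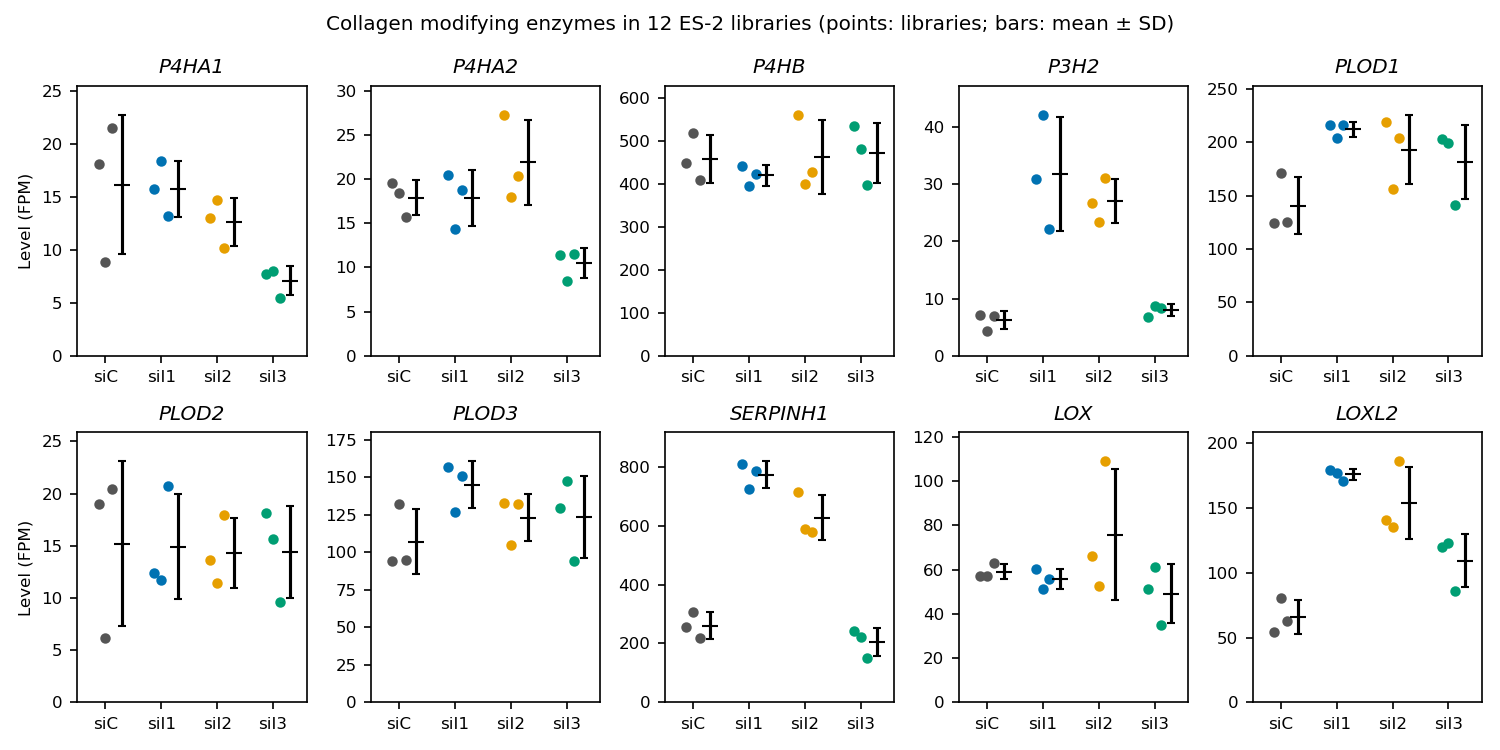
Level of each of the 10 genes in FPM (vertical axes start at 0 and differ between genes) in the 4 groups, with 1 point per library and the mean ± SD of 3 libraries beside the points. The siI1 and siI2 points of P3H2, SERPINH1 and LOXL2 lie above all siC points, and the siI3 points of P4HA1 and P4HA2 lie below them.

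The prolyl 4-hydroxylase is a tetramer of alpha subunits, which carry the active site, and beta subunits. P4HA1, the main alpha subunit of most cells, was at 18.1, 8.84 and 21.5 FPM in siC replicates 1, 2 and 3 and at 7.72, 8 and 5.49 FPM in siI3. All 3 siI3 libraries were below the lowest siC library, but siC replicate 2 was close to them. In siI3 the mean was 7.07 ± 1.37 FPM (SD, n = 3), 43.8% of the 16.2 ± 6.56 FPM in siC, and the fall passed the test (log2 fold change -1.02, SE 0.29, limma adjusted p = 0.0394). After the GC and length correction the change was -0.52 and did not pass (limma adjusted p = 0.167). The call was also absent in 8 of the 12 fits that each left out 1 library, and the log2 fold change ran from -1.38 to -0.30 over all 27 alternatives. In siI1 P4HA1 lay at 15.7, 18.4 and 13.2 FPM and in siI2 at 13, 14.7 and 10.2 FPM, all within the siC range.

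P4HA2, the second alpha subunit, was at 19.6, 18.4 and 15.7 FPM in siC and at 11.4, 8.51 and 11.5 FPM in siI3. The siI3 libraries were again all lower than the siC libraries, with no overlap. The change just missed the threshold (log2 fold change -0.73, SE 0.23, limma adjusted p = 0.0529) and was -0.52 after the GC and length correction (limma adjusted p = 0.137). DESeq2 on the recovered reads did call it (adjusted p = 0.0368). In siI1 (20.5, 14.4 and 18.8 FPM) and siI2 (27.3, 18 and 20.4 FPM) P4HA2 overlapped siC. Shares of both alpha subunits were taken on FPM per kilobase of the longest annotated transcript. P4HA1 made up 50% ± 13 (siC), 50.9% ± 8.03 (siI1), 40.7% ± 7.24 (siI2) and 44.3% ± 8.29 (siI3). Library ranges of this share overlapped between groups.

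P4HB, the beta subunit, is also known as protein disulfide isomerase and serves many secreted proteins besides collagen. It was at 447.7, 517.9 and 408.5 FPM in siC, 442, 394 and 424 FPM in siI1, 560.4, 399 and 428 FPM in siI2, and 535, 482 and 398 FPM in siI3. The groups overlapped throughout, and the log2 fold changes of -0.12, 0.01 and 0.04 did not pass (limma adjusted p = 0.723, 0.99 and 0.91). After the GC and length correction the siI1 value was -0.42 (limma adjusted p = 0.0564).

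P3H2 hydroxylates prolines at the 3 position, mainly in basement membrane collagen. It was the member with the fewest FPM in siC, at 7.19, 4.42 and 7.04, and reached 30.9, 42.1 and 22.2 FPM in siI1 and 26.6, 23.3 and 31.0 FPM in siI2. All 6 of these libraries were above every siC library by a wide gap. The siI3 libraries, at 6.88, 8.77 and 8.33 FPM, overlapped siC. Means were 31.7 ± 9.94 FPM in siI1 and 27.0 ± 3.86 FPM in siI2 against 6.22 ± 1.56 FPM in siC (SD, n = 3). P3H2 rose in siI1 by a log2 fold change of 2.16 (SE 0.26, limma adjusted p = 0.000166) and in siI2 by 1.97 (SE 0.26, limma adjusted p = 0.00248). The GC and length correction left these at 2.12 and 2.02. The siI1 rise was called in all 27 alternatives and the siI2 rise in 26, the exception being the fit without both siC libraries of steep GC slope (limma adjusted p = 0.0703). In bulk RNA, fewer cells of a type and less RNA per cell cannot be told apart, and neither can a change in all cells and a change in some.

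The lysyl hydroxylases differ in their preferred sites: PLOD1 acts on the triple helix, PLOD2 on the telopeptides, and PLOD3 also carries glycosyltransferase activity. PLOD1 was at 125, 171 and 125 FPM in siC and at 215.7, 203.9 and 216.2 FPM in siI1. The siI1 libraries lay above the siC libraries without overlap. The difference did not pass the test (log2 fold change 0.61, SE 0.20, limma adjusted p = 0.0715), was called in 9 of 27 alternatives, among them DESeq2 (adjusted p = 0.0113), and shrank to 0.30 after the GC and length correction. In siI2 (219, 156 and 204 FPM) and siI3 (203, 199 and 141 FPM) PLOD1 overlapped siC.

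PLOD2 was at 19.0, 6.15 and 20.4 FPM in siC. The low library was siC replicate 2, the one with the flat GC slope, and PLOD2 has the lowest GC content of the 10 transcripts, 34.4%. Levels in siI1 (12.4, 11.7 and 20.7 FPM), siI2 (13.6, 11.4 and 17.9 FPM) and siI3 (18.1, 15.6 and 9.57 FPM) lay within the siC range or just above it. PLOD3, with the highest GC content of the 10 at 61.7%, was at 94.0, 131.8 and 95.0 FPM in siC and 157, 127 and 151 FPM in siI1, which overlapped. Its exons share 429 bases with ZNHIT1 on the opposite strand, itself at 94.1 to 207.9 FPM, and the sources used here do not say whether the counting used strand. Neither PLOD2 nor PLOD3 passed the test in any comparison. Shares of the 3 lysyl hydroxylases were likewise taken on FPM per kilobase of the longest annotated transcript. PLOD1 made up 53.9% ± 1.38 in siC, 57.5% ± 2.03 in siI1, 58.7% ± 1.39 in siI2 and 57.3% ± 1.69 in siI3. PLOD2 made up from 3.08% to 4.79% in the 4 groups.

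SERPINH1, the collagen chaperone, was at 255.7, 307.7 and 217.2 FPM in siC. It was at 809.8, 723.3 and 786.2 FPM in siI1 and 714.8, 589.1 and 576.6 FPM in siI2, so the lowest of these 6 libraries stood well above the highest control. In siI3 it was at 241, 222 and 150.1 FPM, overlapping siC, with siI3 replicate 3 below the siC range. The mean was 773 ± 44.7 FPM in siI1, 297% of the 260.2 ± 45.4 FPM in siC, 626.8 ± 76.4 FPM in siI2 and 204 ± 48.0 FPM in siI3 (SD, n = 3). SERPINH1 rose in siI1 (log2 fold change 1.58, SE 0.21, limma adjusted p = 0.000414) and in siI2 (1.27, SE 0.21, limma adjusted p = 0.00711). In siI3 the change of -0.36 did not pass (limma adjusted p = 0.258). With the GC and length correction the changes were 1.31, 1.10 and -0.57, and the siI3 value then passed (limma adjusted p = 0.0228). Neither rise was called without both siC libraries of steep GC slope, a fit that leaves 1 control library. The log2 fold changes in that fit were 1.32 in siI1 and 1.02 in siI2. The siI2 call was also lost without siC replicate 3 or without siI2 replicate 1 (limma adjusted p = 0.0623 and 0.0537).

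LOX, the founding lysyl oxidase, was at 57.0, 57.2 and 62.9 FPM in siC, 60.4, 51.2 and 55.9 FPM in siI1, 66.0, 52.4 and 108.9 FPM in siI2 and 51.1, 61.4 and 34.9 FPM in siI3. The library siI2 replicate 3, which is also the shallowest, stood apart on the high side, and the groups otherwise overlapped. The log2 fold changes of -0.08, 0.29 and -0.30 did not pass (limma adjusted p = 0.86, 0.51 and 0.435).

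LOXL2, a lysyl oxidase with scavenger receptor domains that acts on basement membrane collagen, was at 54.1, 80.1 and 62.8 FPM in siC. It was at 179, 177 and 171 FPM in siI1, 140.3, 135.1 and 185.7 FPM in siI2, and 119, 123 and 86.1 FPM in siI3. All 9 knockdown libraries were above all siC libraries, although siI3 replicate 3 was close to siC replicate 2. LOXL2 rose in siI1 by a log2 fold change of 1.42 (SE 0.20, limma adjusted p = 0.000638), in siI2 by 1.22 (SE 0.20, limma adjusted p = 0.00711) and in siI3 by 0.73 (SE 0.20, limma adjusted p = 0.0338). With the GC and length correction the changes were 1.11, 1.0 and 0.45, of which the siI3 value did not pass (limma adjusted p = 0.0677). The siI3 call was kept in 6 of the 12 fits without 1 library. LOXL2 shares 120 exon bases with ENTPD4 (13.5 to 34.8 FPM) on the same strand. The siI1 call was lost without both siC libraries of steep GC slope (limma adjusted p = 0.141), and the siI2 call without those (0.842), without siC replicate 1 (0.0573) or without siC replicate 3 (0.0556).

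**Figure D2:**
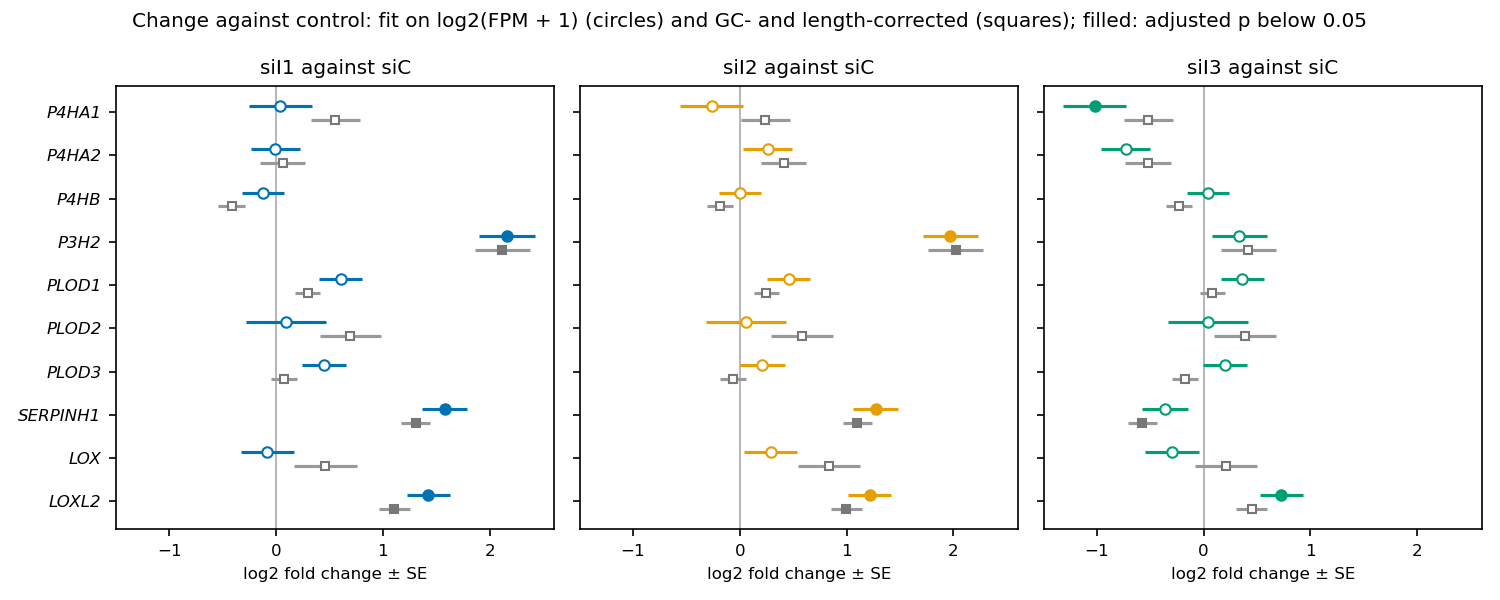
Log2 fold change against siC ± SE for the 10 genes in siI1, siI2 and siI3, from the fit on log2(FPM + 1) (circles) and after correction for GC content and length (squares, grey), filled where the limma adjusted p was below 0.05. P3H2, SERPINH1 and LOXL2 have filled symbols of both kinds in siI1 and siI2, while in siI3 no gene does.

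The correction moved the genes apart by their base composition. P4HA1 (40.8% GC), LOX (39.6%) and PLOD2 (34.4%) shifted upwards, from 0.04, -0.08 and 0.09 to 0.55, 0.46 and 0.70 in siI1, whereas PLOD3, PLOD1 (58.6%) and P4HB (58.4%) shifted downwards, from 0.45, 0.61 and -0.12 to 0.07, 0.30 and -0.42. SERPINH1 (56.5%) and LOXL2 (58.2%) shifted downwards but kept their siI1 and siI2 calls. P3H2, at 51.0%, hardly moved. The median of the 10 became 0.51 in siI1, 0.49 in siI2 and -0.05 in siI3.

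Direct comparisons between knockdowns do not use the siC libraries. Against siI1, siI3 had 4 of the 10 lower and 0 higher, beside 7.05% of all genes called in that comparison, 4.57% lower and 2.47% higher. SERPINH1 was lower by a log2 difference of -1.94 (SE 0.21, limma adjusted p = 2.41e-05), P3H2 by -1.82 (SE 0.26, limma adjusted p = 0.000272), P4HA1 by -1.06 (SE 0.29, limma adjusted p = 0.0389) and LOXL2 by -0.70 (SE 0.20, limma adjusted p = 0.0475). Every siI3 library was below every siI1 library for these 4 genes. The SERPINH1 and P3H2 differences were called in all 27 alternatives, those of P4HA1 and LOXL2 in 17 and 14. Leaving out siC replicate 1 or 3 was enough to lose the LOXL2 call (limma adjusted p = 0.0513 and 0.0643).

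Against siI2, siI3 had 3 of the 10 lower and 0 higher, beside 2% of all genes called, 1.26% lower and 0.74% higher. SERPINH1 was lower by -1.63 (SE 0.21, limma adjusted p = 0.000366), P3H2 by -1.64 (SE 0.26, limma adjusted p = 0.00249) and the alpha subunit P4HA2 by -0.99 (SE 0.23, limma adjusted p = 0.0353). SERPINH1 and P3H2 were again called in all 27 alternatives, and P4HA2 in 18. The P4HA2 call was lost without siC replicate 1 (limma adjusted p = 0.0501). For P4HA1 (-0.76) and LOXL2 (-0.49) the difference did not pass (limma adjusted p = 0.237 and 0.269), although LOXL2 passed after the GC and length correction (-0.55, limma adjusted p = 0.0454).

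Between siI2 and siI1, 0 of the 10 were called by limma, edgeR, DESeq2 or voom, and 0 had an unadjusted p below 0.05, beside 2.4% of all genes called. The log2 differences ran from -0.31 for SERPINH1 to 0.37 for LOX (limma adjusted p = 0.562 to 0.986). This does not show that both knockdowns acted alike, since 3 libraries a group leave an SE of 0.20 to 0.37 on each difference.

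Levels of different genes were compared per kilobase of the longest annotated transcript. In siC the order was P4HB (176 FPM per kb), SERPINH1 (73.9), PLOD1 (47.8), PLOD3 (36.6), LOXL2 (18.5), LOX (11.6), P4HA1 (5.68), P4HA2 (5.35), PLOD2 (3.96) and P3H2 (1.77). The library ranges overlapped between PLOD1 and PLOD3, P4HA1 and P4HA2, P4HA1 and PLOD2, P4HA2 and PLOD2, and PLOD2 and P3H2. The order within these pairs is therefore not resolved. In siI1 SERPINH1 reached 219.4 FPM per kb and passed P4HB at 161, and in siI2 both stood at 178. P3H2 averaged 9.04 FPM per kb in siI1, where its range overlapped that of P4HA1 and lay above P4HA2 and PLOD2. It averaged 7.69 in siI2, where its range overlapped that of P4HA2 and lay above P4HA1 and PLOD2.

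**Figure D3:**
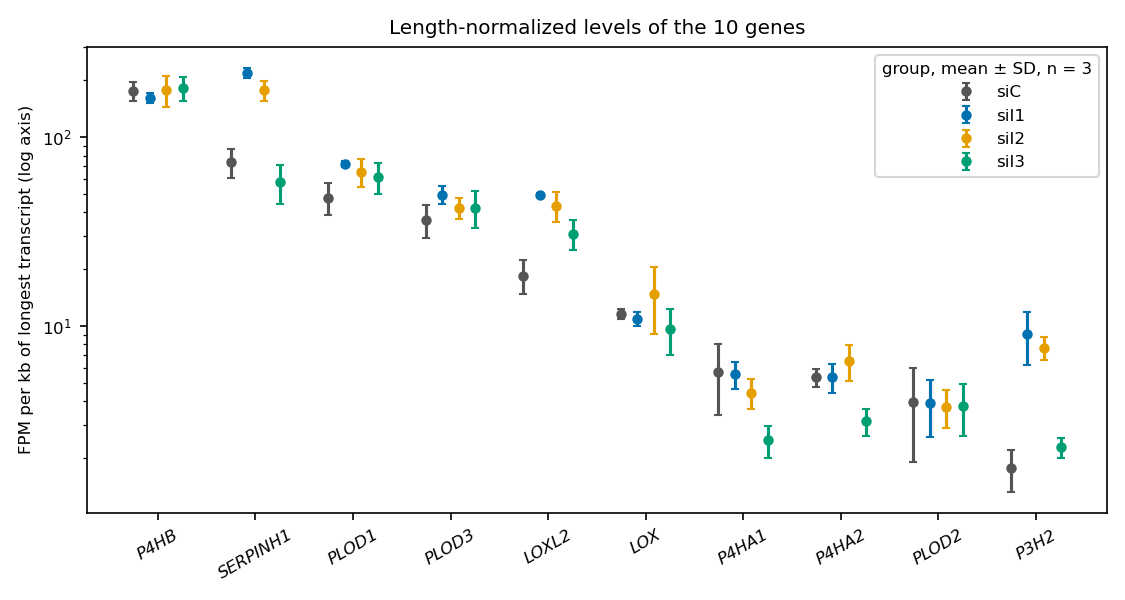
Mean level per kilobase of the longest annotated transcript (log axis) ± SD of 3 libraries for the 10 genes, in the order of their siC means, with 1 colour per group. SERPINH1 rises from 73.9 in siC to 219.4 in siI1, and P3H2 from 1.77 to 9.04, while P4HB keeps to 161 to 181 in all groups.

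Across the 12 libraries, on log2(FPM + 1), P3H2 and SERPINH1 had a Pearson r of 0.88, P3H2 and LOXL2 one of 0.84, and SERPINH1 and LOXL2 one of 0.78. The 12 points share groups, depth and GC slopes, and these values are descriptions of 3 genes that were picked together. Among 9287 genes averaging 5 FPM or more, the pattern of P3H2 was most like those of the growth factor receptor PDGFRB (0.91), QPRT, an enzyme of NAD synthesis (0.91), and the collagen chain COL1A1 (0.90). PDGFRB averaged 1.53 FPM in siC and 1.65 FPM in siI3 and met that minimum only through siI1 (12.6 FPM) and siI2 (6.59 FPM), so its place follows in part from the filter. SERPINH1 was most like the basement membrane collagen COL4A2 (0.98) and KLHDC3 (0.98). LOXL2 was most like the endothelial cadherin CDH5 (0.95), the laminin LAMB2 (0.95) and DOP1B (0.93).

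CDH5 is also a marker of another cell type. The 2 endothelial markers measured, CDH5 and VWF, summed to 55.1 to 72.5 FPM in siC, 134 to 149.9 in siI1, 108 to 127 in siI2 and 96.4 to 109 in siI3, nearly all of it CDH5, as VWF stayed at 15 reads or fewer. Their part in the LOXL2 result was not tested. The 4 fibroblast markers summed to 5.18 to 9.28 FPM in siC, 6.68 to 10.6 in siI1, 4.68 to 8.97 in siI2 and 3.05 to 6.20 in siI3, so every knockdown overlapped siC. The epithelial sum separated from siC in siI1, and the mesenchymal sum in every knockdown. The epithelial sum, led by the keratins, was 655 to 1054 FPM in siC and 1159 to 1467 FPM in siI1, without overlap. P3H2, SERPINH1 and LOXL2 rose in siI1 and also in siI2. KRT8 averaged 44.0 FPM in siC and 147 FPM in siI1, KRT18 158 and 311 FPM, and KRT7 594 and 874 FPM. In siI2 (815 to 1161 FPM) and siI3 (503 to 787 FPM) the epithelial sum overlapped siC. The mesenchymal sum of VIM, FN1 and CDH2 was 1025 to 1193 FPM in siC and lower in every knockdown library, at 450.4 to 845 FPM in siI1, 370.3 to 736 FPM in siI2 and 333 to 633 FPM in siI3, mainly through VIM (means of 914, 484, 353 and 338 FPM). FN1 had its highest mean in siI2, with means of 134 FPM in siC, 51.8 in siI1, 164 in siI2 and 59.2 in siI3. CDH2 had its highest mean in siI1, with means of 54.8, 67.2, 47.2 and 41.4 FPM in the same order. The part of these markers in the results was not tested.

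The other genes of collagen biosynthesis were taken from lists drawn up with earlier results of these data known. Of 16 further modifying enzymes and chaperones, 14 could be tested, and 5 rose in siI1, 2 rose in siI2 and 1 fell in siI3, beside 3.77% and 0.573% of all genes higher and 8.29% lower in those comparisons, with medians of 0.35, 0.35 and -0.10. In siI1 these were the lysyl oxidase LOXL1 (log2 fold change 1.89, limma adjusted p = 0.000171), the collagen galactosyltransferase COLGALT1 (1.01, 0.00292), the peroxidase PXDN, which crosslinks collagen IV (1.02, 0.0097), the prolyl 3-hydroxylase P3H1 (0.80, 0.0345) and the oxidase LOXL3 (0.74, 0.0491). LOXL3 was outside the naming rule and is named because its count was small, and the GC and length correction ended its call (limma adjusted p = 0.142). In siI2, PXDN (0.99, limma adjusted p = 0.0321) and COLGALT1 (0.77, 0.0464) rose, and in siI3 the transglutaminase TGM2 fell (-0.79, 0.0241). The GC and length correction also ended the siI2 call of PXDN (0.82, limma adjusted p = 0.0666). Apart from these and LOXL3, the calls of this list passed with the correction as well. LOXL1 and COLGALT1 kept the siI1 call in all 12 fits without 1 library. The other calls in this list were lost in 3 to 9 of those fits.

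Of 16 genes of procollagen export and propeptide processing, 12 could be tested, and 4 rose in siI1 (3.77% of all genes), 0 changed in siI2 (1.51% of all genes), and 1 rose and 1 fell in siI3 (2.3% and 8.29% of all genes). The procollagen C-proteinase BMP1 rose by 1.86 in siI1 (limma adjusted p = 0.000389), the N-proteinase ADAMTS2 by 1.04 (0.00354), the proteinase enhancer PCOLCE by 1.0 (0.00998) and the coat protein SEC24D by 0.62 (0.0492). In siI3 ADAMTS2 rose by 1.0 (limma adjusted p = 0.0089), and the coat protein SEC23A fell by 1.79 (0.0096). PCOLCE and SEC24D lost the siI1 call in 4 and 8 of the 12 fits without 1 library, and the siI3 calls of ADAMTS2 and SEC23A in 2 and 3.

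Of 12 collagen chains that these enzymes act on, 9 could be tested, and 4 rose in siI1 (3.77% of all genes), 1 rose in siI2 (0.573%) and 0 changed in siI3 (10.6%). COL1A1 had a mean of 93.5 FPM in siC, 750.4 in siI1 and 358 in siI2. Its log2 fold changes were 3.00 (limma adjusted p = 6.2e-06) and 1.86 (0.00248), with 0.57 in siI3 (0.151). COL5A1 (1.88), COL4A1 (1.38) and COL4A2 (1.37) rose in siI1 too. COL1A2, the partner chain of COL1A1 in type I collagen, had 6 to 46 reads per library and did not pass in any comparison with siC (limma adjusted p = 0.681, 0.576 and 0.54).

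Of 15 hypoxia-inducible factor targets outside the 10 genes, 12 could be tested. BNIP3 (0.99, limma adjusted p = 0.00311) and the glucose transporter SLC2A1 (0.89, 0.0424) rose in siI1, 0 changed in siI2, and the mitophagy receptor BNIP3L fell in siI3 (-1.66, 0.00252). These are 2 of 12 higher beside 3.77% of all genes, 0 beside 1.51%, and 1 of 12 lower beside 8.29%, the last close to the share over all genes. The medians were 0.01, -0.66 and -0.34 in the 3 knockdowns, where P4HA1 had 0.04, -0.26 and -1.02. Of the other members named as targets, P4HA2 had -0.01, 0.26 and -0.73, PLOD2 0.09, 0.05 and 0.04, and LOX -0.08, 0.29 and -0.30. SLC2A1 lost its call in 6 of the 12 fits without 1 library, and BNIP3 and BNIP3L kept theirs in all.

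**Figure D4:**
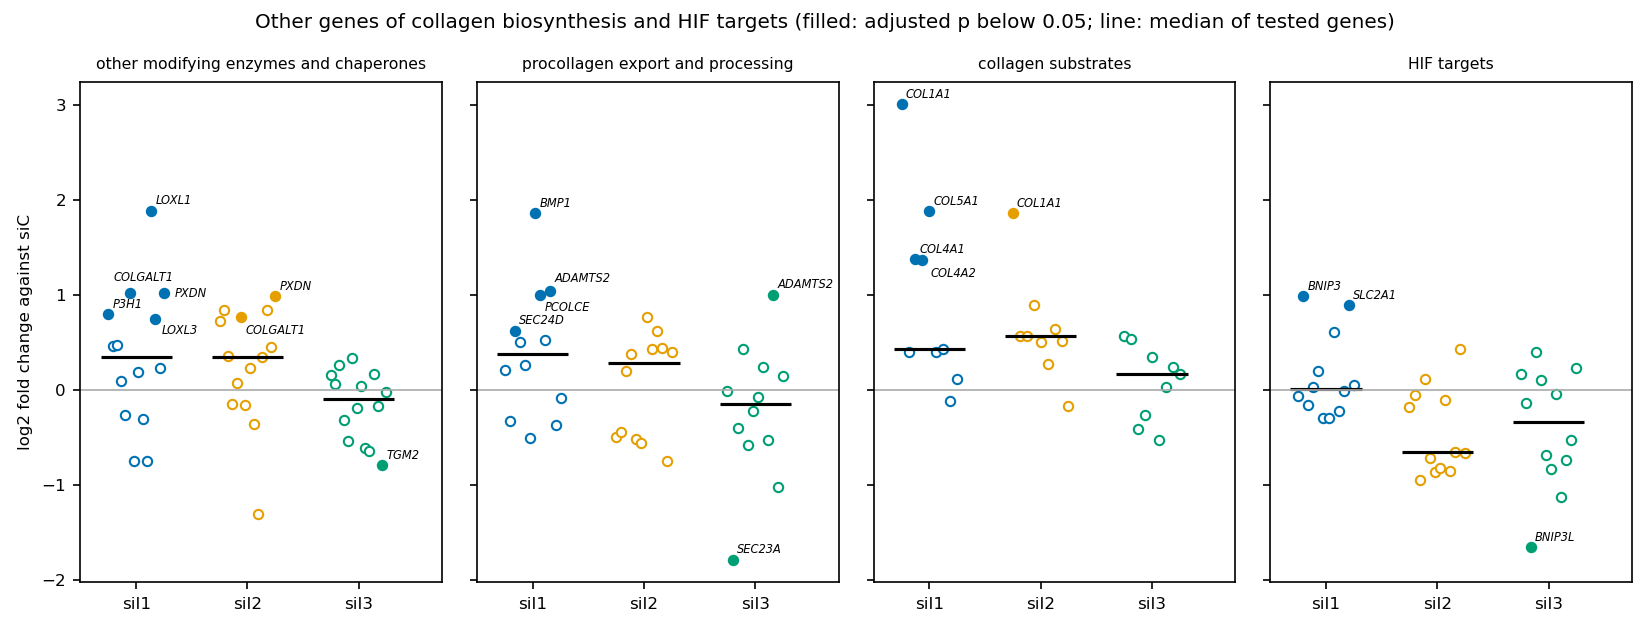
Log2 fold change against siC of each tested gene of 4 lists (other modifying enzymes and chaperones, procollagen export and processing, collagen substrates, HIF targets) in siI1, siI2 and siI3, with filled points for a limma adjusted p below 0.05 and a line at the median of the list. COL1A1 is the highest point of the lists, at 3.00 in siI1, and SEC23A the lowest, at -1.79 in siI3.

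The authors' deposited table, which gives their own fold changes, lists P3H2 at a log2 fold change of 2.35 in siI1 (FDR 3.81e-10) and 2.12 in siI2 (5.38e-07). It lists SERPINH1 at 1.57 (FDR 2.8e-06) and 1.27 (0.00173), and LOXL2 at 1.42 (0.000319) and 1.23 (0.0135). In siI3 the authors' deposited table lists LOXL2 at 0.74 with an FDR of 0.307 and P4HA1 at -1.18 with an FDR of 0.21, neither of which passes 0.05 there.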

How the data were processed

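Per the submitters' processing notes, adapters were trimmed with cutadapt 1.6, TopHat2 2.0.13 mapped the reads to hg19, featureCounts 1.4.6 counted them, and edgeR 3.12 was used. The sources used here give neither the strand setting nor the annotation release. Per the file headers, the deposited values are FPM, a signal the authors scaled by library size, for 57865 features, 92 of them ERCC spike-ins. The authors also deposited log2 fold changes and FDR values (adjusted p-values) against control, quoted only as theirs. Every FPM value was a whole multiple of 1 read (0.108 to 0.242 FPM; 100% whole within 0.01), which gave the read totals.

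The main test was limma 3.58.1 (R 4.3.3) on log2(FPM + 1), with a trend of variance on mean level; this scale understates changes of low genes. It was fitted to all 12 libraries and the 13782 genes that passed filterByExpr (edgeR 4.0.16, minimum count 10), with Benjamini-Hochberg adjustment over all genes within each comparison and a call below 0.05. It was tested on simulated data first. The GC and length correction subtracted a loess surface (span 0.5) over transcript GC content and length from each library, for 13361 genes. The 27 alternatives were 12 fits that each left out 1 library and 15 others: factors, filters, pseudocounts, tools on the recovered reads (edgeR, DESeq2 1.42.0, voom), the replicate block, the correction, the 6 libraries compared, and, chosen after seeing the data, both siC libraries of steep GC slope left out. On the recovered reads edgeR's quasi-likelihood test made 1388 calls for siI1, 185 for siI2 and 1379 for siI3, each against siC. The 10 genes and the gene lists were chosen with earlier results of these data known. Genes named were these 10, the IGF2BP genes, COL1A1 and COL1A2, up to 4 called genes per list and comparison by smallest adjusted p, and for the 3 members with the widest group means the 3 genes of highest Pearson r. Some results under these rules are not reported here.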

Additional observations from a re-analysis of the deposited data

Results flagged for a closer look

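In 7 cases the effect of an siRNA pool against siC differed from that of another pool, by the direct test between the 2 knockdowns. The difference of siI3 from siI1 was -1.94 for SERPINH1, -1.82 for P3H2, -1.06 for P4HA1 and -0.70 for LOXL2 (log2, limma adjusted p = 2.41e-05, 0.000272, 0.0389 and 0.0475), with all 3 siI3 libraries below all 3 siI1 libraries for each. The difference of siI3 from siI2 was -1.63 for SERPINH1, -1.64 for P3H2 and -0.99 for P4HA2 (log2, limma adjusted p = 0.000366, 0.00249 and 0.0353). The SERPINH1 and P3H2 differences were called in all 27 alternatives. Among the 12 fits without 1 library, P4HA1 and LOXL2 (siI3 against siI1) kept the call in 5 and 3, and P4HA2 (siI3 against siI2) in 6.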

How the results depend on the processing

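No direction of a called gene reversed under any of the 27 alternatives. In siI1 against siC, 3 of the 10 genes were called, and 1, P3H2, without both siC libraries of steep GC slope, where 40 genes were called in all. In siI2, 3 were called, 0 without both those libraries, and 1 to 3 when each library was left out in turn. In siI3, 2 were called; 0 with no filter on low values, with only the 6 libraries compared, or without both siC libraries of steep slope; and 1 with upper-quartile factors, with voom, or with the GC and length correction, alone or with the replicate block. With the GC and length correction that 1 gene was SERPINH1, lower (log2 fold change -0.57, limma adjusted p = 0.0228). LOXL2 and P4HA1, the 2 called without the correction, then did not pass (limma adjusted p = 0.0677 and 0.167). Leaving out each library in turn gave 0 to 3. Between siI3 and siI1, 4 were called, 2 with no filter, and 2 to 4 when each library was left out. With the replicate block, 0 were called in siI3 against siC and 2 between siI3 and siI1, while siI1 against siC, siI2 against siC and siI3 against siI2 stayed at 3 each. The replicate numbers do not pair the samples: deviations of same-numbered libraries correlated at -0.45 to 0.45, and 3 of 12 libraries correlated best with their own number. Depth limits the low genes, as P4HA1 rested on 31 to 159 reads and P3H2 on 41 to 263 per library.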
